A study of Mus musculus with 4 samples.

Results

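The genes described here are 9 genes used as markers of the ciliary body or its forming rim, together with *Crb1*: *Best2*, *Optc*, *Zic1*, *Zic2*, *Zic5*, *Msx1*, *Otx1*, *Mab21l2*, *Rtbdn* and *Crb1*. They were taken by gene symbol from a table of normalized RNA-seq reads of the mouse lens, and all 10 were present among its 14924 genes. The members were chosen by their values in these same libraries, where most were already known to differ between the groups, so the difference between the groups in these 10 genes is given as a description, without a test. The RNA came from 2 libraries of *S100A4*-/- lenses, from a line that lacks S100A4 throughout the body, and 2 libraries of lenses from WT littermates. All mice were 1 month old and on the C57BL/6J background, both sexes were used, and each library pooled 6 to 12 lenses. The labels name no other allele and no treatment. The study describes the 2 libraries of each group as biological replicates. Nothing in the labels ties a library to particular animals, and what part of the spread between libraries is technical was not tested.

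The ciliary body is the ring of muscle, vessels and folded double epithelium behind the iris. Its nonpigmented epithelium secretes the aqueous humor, by means of ion pumps, carbonic anhydrases and bicarbonate channels, and makes much of the vitreous matrix and of the zonule, the fibrils that suspend the lens. The forming ciliary margin lies between retina and iris, is patterned by BMP and Wnt signals from the neighboring tissue, and uses transcription factors of the Otx, Msx and Zic families. Crumbs proteins are apical membrane proteins that hold epithelial polarity, and *Crb1* is best known from photoreceptors and Müller glia, where its loss causes retinal degeneration.

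The labels were checked first with the deleted gene. *S100a4* had 17 and 18 reads in *S100A4*-/- lenses, against 13810 and 13138 reads in WT lenses. The libraries held 81602367 and 74108017 reads in the *S100A4*-/- group and 70253985 and 68038158 in the WT group, and in each of them the 10 genes with the most reads took 60.1% to 61.7% of all reads. Lens identity was plain in every library. *Cryaa*, the alpha-A crystallin of lens fibers, had 12619100 ± 947890 normalized reads (SD, n = 2) in *S100A4*-/- lenses and 13198100 ± 191205 (SD, n = 2) in WT lenses. None of the 12 fiber genes and none of the 4 lens epithelium genes listed passed the threshold used throughout: a 2-fold difference or more and a Benjamini-Hochberg adjusted p of at most 0.05 in limma's test across all 14780 genes with a value of 10 or more in any library. At an unadjusted p under 0.05 limma placed 3 of the fiber genes (*Grifin*, *Lgsn* and *Mip*) and 1 of the epithelium genes (*Cdh1*) lower and none higher, and edgeR and DESeq2 called 0 of either list.

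The members that encode secreted, membrane-channel or ligand-binding proteins were several-fold more abundant in *S100A4*-/- lenses. *Optc* (ENSMUSG00000010311) encodes opticin, a small leucine-rich proteoglycan that the nonpigmented ciliary epithelium releases into the vitreous. Its normalized reads were 3609 and 3502 in *S100A4*-/- lenses, against 693 and 888 in WT lenses. Both *S100A4*-/- libraries were thus far above both WT libraries, and the WT libraries differed between themselves by 1.28-fold. The ratio of the group means was 4.50, and its 95% interval for read counting alone was 4.27 to 4.78. On the log2(value + 1) scale the difference was 2.18 (SE 0.08). *Best2* (ENSMUSG00000052819) encodes bestrophin-2, a chloride and bicarbonate channel of the nonpigmented ciliary epithelium. It had 455 and 510 normalized reads in *S100A4*-/- lenses and 100 and 113 in WT lenses, a ratio of 4.53 with a counting interval of 3.87 to 5.28 and a log2 difference of 2.17 (SE 0.14). The gap between the groups was wide beside the spread within each, which was 1.12-fold for the *S100A4*-/- pair and 1.13-fold for the WT pair.

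*Rtbdn* (ENSMUSG00000048617) encodes retbindin, a riboflavin-binding protein related to folate receptors and made mainly by rods, so it is also a retinal marker. It stood at 132 and 189 normalized reads in *S100A4*-/- lenses and at 36.5 and 51.5 in WT lenses. The groups did not overlap, but the *S100A4*-/- libraries differed from each other by 1.43-fold, the widest *S100A4*-/- spread among the 10 genes. The ratio of means was 3.64 (counting interval 2.82 to 4.64) and the log2 difference 1.84 (SE 0.24).

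*Zic1*, *Zic2* and *Zic5* encode zinc finger transcription factors of the neural tube, the eye margin and the cerebellum. *Zic1* (ENSMUSG00000032368) had 294 and 233 normalized reads in *S100A4*-/- lenses and 51.2 and 61.3 in WT lenses. *Zic2* (ENSMUSG00000061524) had 178 and 140 in *S100A4*-/- lenses and 19.8 and 29.6 in WT lenses. *Zic5* (ENSMUSG00000041703) had 36.8 and 30.4 in *S100A4*-/- lenses and 7.31 and 1.095 in WT lenses, the last of these being 1 read. For all 3 genes both *S100A4*-/- libraries lay above both WT libraries, and library 1 was the higher of the *S100A4*-/- pair. The ratios of means were 4.68 for *Zic1* (counting interval 3.84 to 5.89) and 6.44 for *Zic2* (4.79 to 9.09), and the counting interval for *Zic5* was 3.82 to 19.04. The last interval is wide because the WT libraries held 8 *Zic5* reads in all. The log2 differences were 2.20 (SE 0.19), 2.65 (SE 0.27) and 3.05 (SE 0.65). The value of *Zic5* was 4.04 without WT library 1 and 2.05 without WT library 2, and the 1 read of WT library 2 is under 3 reads, below which a value was taken as not told apart from 0 here.

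*Otx1* (ENSMUSG00000005917) encodes a homeodomain factor needed for the ciliary process to form. It had 90.8 and 81.1 normalized reads in *S100A4*-/- lenses and 10.4 and 24.1 in WT lenses, which is 10 and 22 reads, and the log2 difference was 2.36 (SE 0.35). *Mab21l2* (ENSMUSG00000057777) encodes a regulator of eye morphogenesis, and had 243 and 276 normalized reads in *S100A4*-/- lenses against 85.6 and 67.9 in WT lenses, a ratio of 3.38 (counting interval 2.79 to 4.06) and a log2 difference of 1.75 (SE 0.18). This was the smallest ratio among the 9 genes that differed by 2-fold or more.

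*Msx1* (ENSMUSG00000048450), a homeobox gene of the ciliary margin that acts downstream of BMP signals, was the exception among the 10. Its normalized reads were 580 and 525 in *S100A4*-/- lenses and 480 and 541 in WT lenses. The groups overlapped, since WT library 2 was above *S100A4*-/- library 2. The ratio of means was 1.08 with a counting interval of 0.998 to 1.19, and the log2 difference was 0.11 (SE 0.10). At 510.6 ± 42.8 normalized reads (SD, n = 2) in WT lenses it was also the second highest of the 10 in the normal lens per kilobase of exon.

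*Crb1* (ENSMUSG00000063681) had the largest ratio. Its normalized reads were 146 and 142 in *S100A4*-/- lenses and 17.8 and 2.19 in WT lenses, which correspond to 171 and 140 reads against 17 and 2. The *S100A4*-/- libraries were nearly equal while the WT libraries differed by 8.11-fold, the widest spread of any of the 10. The ratio of means was 14.5 (counting interval 8.95 to 23.9) and the log2 difference 4.23 (SE 0.46), and with 1 library left out in turn or another processing the log2 difference ran from 2.95 to 5.51. The low end came with WT library 1 alone in its group and the high end with WT library 2 alone. The 2 reads of WT library 2 are again under 3 reads.

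**Figure D1:**
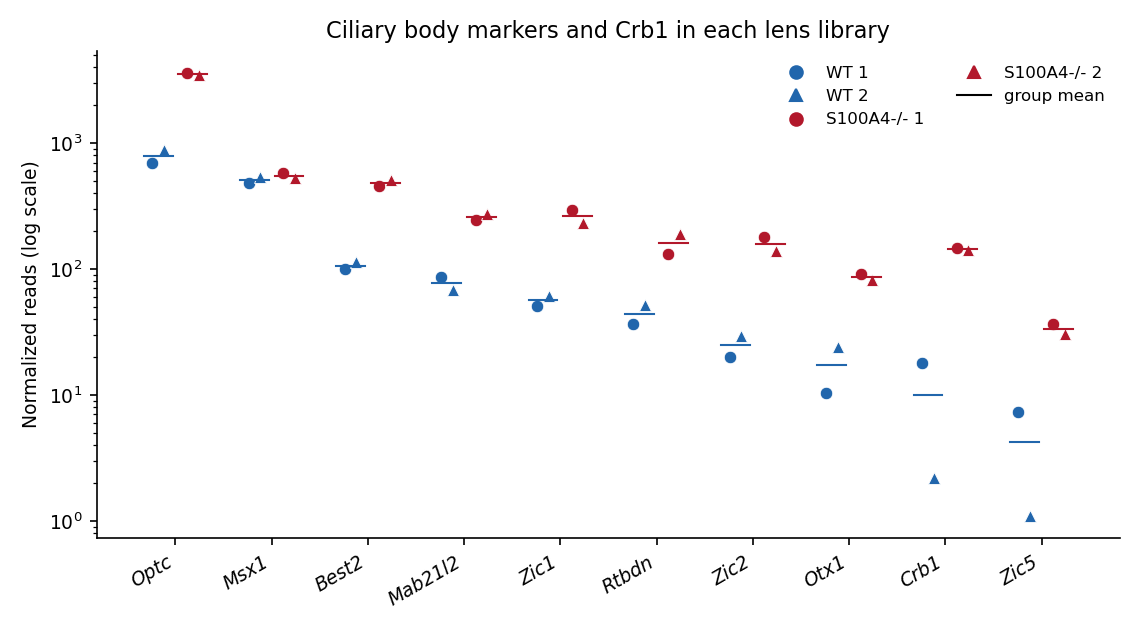
Normalized reads of each of the 10 genes in each lens library, on a log axis, with genes ordered by their WT mean. Circles are library 1 and triangles library 2 of each group, blue for WT and red for *S100A4*-/-, and short lines are group means. The red points sit above the blue points for every gene but *Msx1*, whose 4 values lie between 480 and 580.

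Of the 10 genes, 9 were 2-fold or more higher in *S100A4*-/- lenses, and for the same 9 both *S100A4*-/- libraries lay above both WT libraries, as did 23.7% of all 14780 genes tested. These counts were fixed by the choice of the genes and nothing is read from them. For the lists outside the 10 genes given further on, the share of all genes tested that passed the threshold (called, for short) was 3.65% higher in *S100A4*-/- lenses by limma, 3.74% by edgeR and 2.85% by DESeq2. Those lists, too, were written with earlier results of these data known, so their counts are descriptions and no independent check. The median log2 difference over the 10 genes was 2.19, beside -0.01 over all genes tested. All 10 passed the filter on low values. Where a library is left out below, the 1 library remaining in its group is assumed to vary like the other group.

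The libraries of a group did not deviate in the same way in all members. WT library 2 was the higher WT library in 7 of the 10 genes and *S100A4*-/- library 1 the higher of its pair in 7. The members with the fewest WT reads varied most between the WT libraries, by 8.11-fold for *Crb1*, 6.68-fold for *Zic5* and 2.31-fold for *Otx1*. The other 7 varied by 1.13-fold to 1.49-fold.

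Levels were compared between genes per kilobase of exon, as normalized reads divided by the summed exon length in the gene annotation. In WT lenses *Optc* stood first at 307 ± 53.5 normalized reads per kilobase (SD, n = 2), followed by *Msx1* at 165 ± 13.8, *Best2* at 48.0 ± 3.998, *Mab21l2* at 25.2 ± 4.11 and *Rtbdn* at 13.0 ± 3.11. *Zic1* at 9.88 and *Zic2* at 8.58 per kilobase followed and overlapped in range, then *Otx1* at 3.18, and the lowest pair, *Zic5* at 0.859 and *Crb1* at 0.691, overlapped as well. The median of all genes tested was 67.95 per kilobase in WT lenses, so only *Optc* and *Msx1* were above the median gene there. In *S100A4*-/- lenses *Optc* was again first at 1381 ± 29.4 per kilobase and *Best2*, at 218 ± 17.6, stood above *Msx1* at 178 ± 12.5. *Mab21l2* came next at 85.1, and *Zic2* at 55.2, *Rtbdn* at 47.2 and *Zic1* at 46.3 overlapped in range. *Otx1* at 15.8, *Crb1* at 9.99 and *Zic5* at 6.88 per kilobase closed the order. These are pooled lenses, and a change in how many cells carry a transcript and a change in how much each cell carries cannot be told apart.

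The promoters of the members were compared because 9 of the genes stood higher together. RefSeq windows on build GRCm38.p6, from 250 bases before to 50 bases after the transcription start, were at hand for 7 of the 10 genes. The stretches below lie before the start, outside annotated exons, and read 5′ to 3′ on the strand of the gene. *Zic1* and *Msx1* are shown as the CpG-rich pair, of which 1 was higher and 1 was not, and *Crb1* as a CpG-poor promoter of the gene with the largest ratio. Capitals mark CpG dinucleotides in these 3 stretches, from *Zic1* (chr9:91365811-91366010, minus strand), *Msx1* (chr5:37824586-37824785, minus strand) and *Crb1* (chr1:139377101-139377300, minus strand).
Zic1: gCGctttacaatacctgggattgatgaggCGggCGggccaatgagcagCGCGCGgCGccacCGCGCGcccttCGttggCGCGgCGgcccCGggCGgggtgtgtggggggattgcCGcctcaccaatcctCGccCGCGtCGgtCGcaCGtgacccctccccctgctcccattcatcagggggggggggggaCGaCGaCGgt
Msx1: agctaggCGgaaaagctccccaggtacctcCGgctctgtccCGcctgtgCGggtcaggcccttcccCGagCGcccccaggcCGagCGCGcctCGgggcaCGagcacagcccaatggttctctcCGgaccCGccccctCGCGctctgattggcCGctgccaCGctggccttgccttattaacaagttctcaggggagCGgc
Crb1: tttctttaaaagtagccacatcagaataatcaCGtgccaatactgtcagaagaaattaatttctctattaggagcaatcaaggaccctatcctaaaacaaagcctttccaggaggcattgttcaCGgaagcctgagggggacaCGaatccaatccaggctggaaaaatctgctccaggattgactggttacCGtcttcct

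The 200 bases of *Zic1* hold 26 CpG dinucleotides, those of *Msx1* 18 and those of *Crb1* 4. Over the whole 300-base windows the counts were 31 for *Zic1*, 29 for *Msx1*, 15 for *Zic5*, 14 for *Mab21l2*, 6 for *Optc*, and 4 each for *Crb1* and *Rtbdn*. The median of all 32851 RefSeq promoter windows, from 27025 genes, was 7. The genes that stood higher lay on both sides of that median, and *Msx1* had nearly the CpG count of *Zic1*. Whether CpG content bears on the difference between the groups was not tested.

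**Figure D2:**
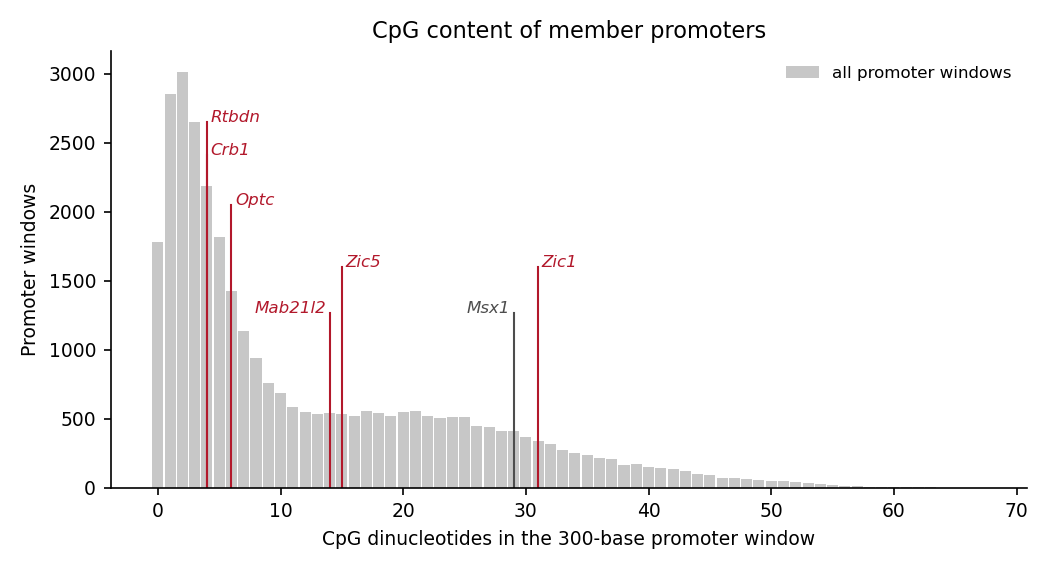
Number of CpG dinucleotides in 300-base promoter windows: gray bars count all 32851 RefSeq windows, and vertical lines mark the 7 members matched, red for those at least 2-fold higher in *S100A4*-/- lenses and gray for *Msx1*. The heights of the lines carry no value. Members run from 4 CpG dinucleotides (*Rtbdn*, *Crb1*) to 31 (*Zic1*), on both sides of the median of 7.

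The 6-base sequence TAATCC, the core bound by OTX and CRX homeodomain proteins, was searched for on both strands, as TAATCC or GGATTA. It was in 1 of the 7 windows, that of *Rtbdn*, and in 7.06% of all windows. The *Rtbdn* stretch that holds it (chr8:84946791-84946990, plus strand) is shown with the match in capitals.
Rtbdn: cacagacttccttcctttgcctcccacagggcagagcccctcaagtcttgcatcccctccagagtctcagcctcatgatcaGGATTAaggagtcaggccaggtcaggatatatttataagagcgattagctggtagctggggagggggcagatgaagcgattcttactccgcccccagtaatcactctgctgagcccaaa

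The match says only that these letters are in the window, and the windows of *Optc*, *Zic1*, *Zic5*, *Msx1*, *Mab21l2* and *Crb1* did not hold them.

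The members fall in 8 places of the genome (GRCm38), and genes around them were examined next. *Zic2* (chromosome 14, 122475435 to 122479852) and *Zic5* (122456795 to 122465677) lie head to head 9.76 kb apart. *Rtbdn* (chromosome 8, 84946991 to 84956603) and *Best2* (85007202 to 85014531) lie 50.6 kb apart. Between them lie *Rnaseh2a*, *Prdx2*, *Junb* and *Hook2*, whose log2 differences were 0.14, -0.02, 0.09 and 0.66, none past the threshold. Within 100 kb of the 10 genes there were 29 other genes in the table. Of these, 4 were called higher and none lower by limma, with 6 higher and 1 lower at an unadjusted p under 0.05 and 0 called lower by edgeR or DESeq2, and their median log2 difference was -0.01, beside -0.01 over all genes. The 4, named here after their values were seen, were *Prelp*, *Mast1*, *Atp2b4* and *Zic4*. *Prelp*, a matrix proteoglycan gene 2.31 kb from *Optc* (chromosome 1, 133897199 to 133907999), had 922 ± 4.58 normalized reads (SD, n = 2) in *S100A4*-/- lenses and 237 ± 32.9 (SD, n = 2) in WT lenses. The log2 difference was 1.96 (limma, Benjamini-Hochberg adjusted p = 1.18e-17). *Mast1*, 9.63 kb from *Rtbdn*, had a log2 difference of 1.48 (SE 0.43; limma adjusted p = 0.0263). *Atp2b4* was 96.2 kb from *Optc*, with a log2 difference of 1.15 (SE 0.20). Limma without the variance trend called *Prelp* and *Zic4* but not *Mast1* or *Atp2b4*, and after quantile normalization *Mast1* was not called. Without *S100A4*-/- library 2 limma called *Prelp* alone among the 29, and without *S100A4*-/- library 1 it called *Prelp* and *Atp2b4*, as DESeq2 did.

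**Figure D3:**
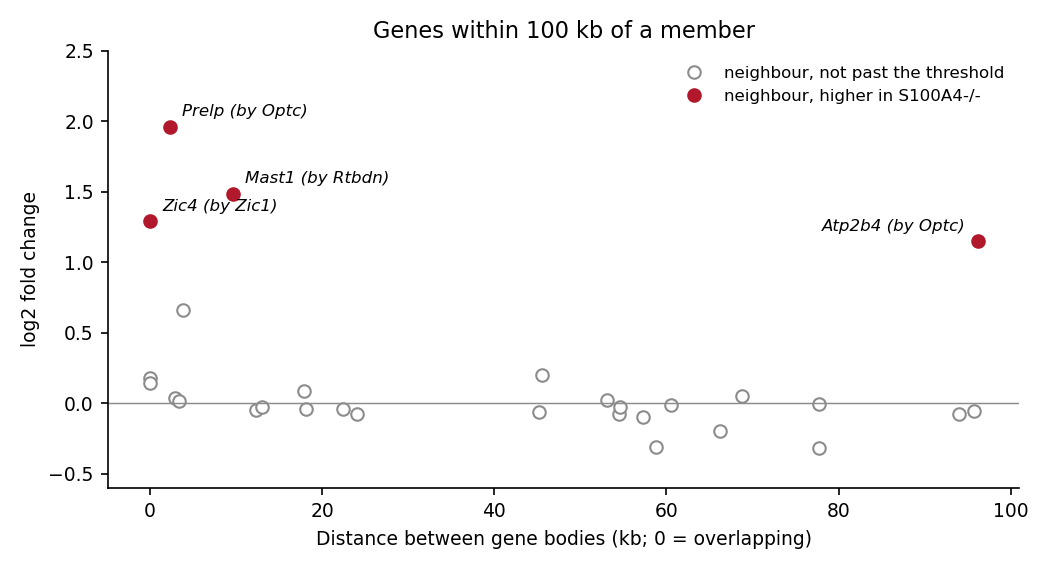
Log2 difference between *S100A4*-/- and WT lenses, on log2(value + 1), against the distance in kb between gene bodies, for the 29 other genes within 100 kb of a member. Filled red points are the 4 genes called higher by limma, named with their nearest member, and open points are the other 25, which lie between -0.32 and 0.66.

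Some gene bodies overlap. *Zic1* (chromosome 9, 91358058 to 91365810, minus strand) overlaps *Zic4* on the plus strand. *Mab21l2* (chromosome 3, 86545581 to 86548629, minus strand) lies inside *Lrba* on the plus strand, and *Lrba* had a log2 difference of 0.18 (limma adjusted p = 0.248). The libraries were made with a kit that keeps the strand, but the strand setting of the counting is not given in the sources used here, so the division of reads in these overlaps is uncertain. The other members are *Otx1* (chromosome 11, 21994764 to 22002897), *Msx1* (chromosome 5, 37820485 to 37824583) and *Crb1* (chromosome 1, 139197056 to 139377100), and genes within 100 kb of *Otx1* or *Crb1* had log2 differences between -0.32 and 0.04, while none within 100 kb of *Msx1* was measured.

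Relatives of the members behaved differently from family to family. The 1 Zic gene examined outside the members, *Zic4*, had 60.8 and 67.9 normalized reads in *S100A4*-/- lenses against 25.1 and 26.3 in WT lenses (log2 difference 1.29; limma adjusted p = 0.00532). It was called by limma and edgeR but not by DESeq2, nor by limma with either *S100A4*-/- library left out in turn. In the Otx family *Otx1* is a member, chosen by its values, and both relatives were called. *Otx2* had 85.6 and 59.8 normalized reads in *S100A4*-/- lenses and 23.0 and 15.3 in WT lenses (log2 difference 1.88), and *Crx*, the photoreceptor member of the family, had 351 and 355 against 109 and 65.7 (log2 difference 2.05; limma adjusted p = 1.35e-11). Of these relatives, *Crx* alone was called with either *S100A4*-/- library left out in turn, and limma without the variance trend called neither.

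In the other families no relative of a member was called. *Mab21l1*, the close paralog of *Mab21l2*, had 3306 and 3239 normalized reads in *S100A4*-/- lenses and 3359 and 3388 in WT lenses, a log2 difference of -0.04 (SE 0.05). *Ogn*, which encodes osteoglycin, a proteoglycan of the same class as opticin, had 9541 ± 220 (SD, n = 2) against 10927 ± 334 (SD, n = 2), a log2 difference of -0.20 (limma adjusted p = 0.00267) with both *S100A4*-/- libraries below both WT libraries, but short of 2-fold. *Best3* had 48.0 ± 4.80 against 54.9 ± 6.47 (log2 difference -0.19; limma adjusted p = 0.799), and *Msx2*, the paralog of *Msx1*, had 563 ± 12.5 against 640 ± 27.5 (log2 difference -0.18; limma adjusted p = 0.278). Of the folate and riboflavin genes, *Folr1* had a log2 difference of -0.12, *Slc52a2* of -0.05 and *Folr2*, at a WT mean of 3.78 normalized reads, of 1.04 (limma adjusted p = 0.578). *Best1*, *Msx3*, *Mab21l3*, *Mab21l4*, *Epyc* and *Slc52a3* were not analysed here.

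Of 13 genes measured for the Crumbs polarity complex, *Crb1* is a member, chosen by its values, and of the others 1 was called higher and none lower. The median log2 difference over the 13 was 0.02. The gene called was *Mpp4*, a scaffold gene of photoreceptor membranes, which had 134 and 133 normalized reads in *S100A4*-/- lenses and 34.5 and 24.1 in WT lenses (log2 difference 2.17, SE 0.26; limma adjusted p = 5.91e-08). *Crb2*, a paralog of *Crb1*, had 1356 and 1268 normalized reads in *S100A4*-/- lenses and 1292 and 1295 in WT lenses, and the groups overlapped. *Crb3* had 14.2 ± 4.31 (SD, n = 2) and 11.3 ± 7.18 (SD, n = 2). *Mpp3* had a log2 difference of 0.79 (SE 0.27; limma adjusted p = 0.0706). The other 8, the core scaffolds *Mpp5* and *Patj*, the adaptors *Lin7a* and *Lin7c*, and *Pard3*, *Pard6a*, *Pard6b* and *Prkci* of the PAR complex, had log2 differences between -0.23 and 0.07. *Lin7b* was not analysed here. Limma without the variance trend did not call *Mpp4* or any of the other genes outside the members.

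The other ciliary genes, in lists written with earlier results of these data known, did not form a uniform picture. The vitreous and zonule matrix list stood highest: 10 of its 13 measured genes were called higher and none lower, with a median log2 difference of 2.13 beside -0.01 over all genes. *Col18a1*, the collagen that yields endostatin and the gene of the list with the most reads, had 4462 and 4337 normalized reads in *S100A4*-/- lenses and 834 and 934 in WT lenses, a log2 difference of 2.32 (SE 0.06; limma adjusted p = 1.05e-26). *Col2a1*, the main fibrillar collagen of the vitreous, had 726 ± 29.96 (SD, n = 2) against 154 ± 23.3 (SD, n = 2), and its fibril partner *Col11a1* had 252 ± 31.7 against 54.2 ± 14.7. The log2 differences of these collagens were 2.23 (SE 0.12) and 2.22 (SE 0.20). The other genes called were *Col9a1*, *Col9a2*, *Col9a3*, *Ltbp2*, *Vcan*, *Fbn1* and *Fbn2*, at log2 differences of 1.58 to 2.17. Limma without the variance trend called 6 of the 13, and not *Col11a1*, *Ltbp2*, *Fbn1* or *Fbn2*. Not past the threshold were *Mfap2* at -0.03, *Hapln1* at 0.01 and *Col5a2* at 0.43. *Has2* was not analysed here.

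In the aqueous secretion list, of 12 genes, 1 was called higher and none lower, and the median log2 difference was 0.07. *Atp1b2* encodes a sodium pump subunit known from glia and from the nonpigmented ciliary epithelium. It had 888 and 869 normalized reads in *S100A4*-/- lenses against 236 and 274 in WT lenses (log2 difference 1.78; limma adjusted p = 8.52e-17). The gene of the list with the most reads, the pump subunit gene *Atp1b3*, had 11593 ± 304 (SD, n = 2) against 11886 ± 185 (SD, n = 2), a log2 difference of -0.04, and the groups overlapped. The water channel gene *Aqp1* had 2569 ± 98.4 against 2329 ± 72.8, and the carbonic anhydrase gene *Car2* had 1337 ± 16.3 against 1350 ± 50.6, with log2 differences of 0.14 and -0.01. The lens uses many of these transport genes itself.

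Of 8 secreted ciliary proteins measured, 3 genes were called higher and none lower, with a median log2 difference of 0.62. *Penk*, which encodes the enkephalin precursor, had 1383 and 1391 normalized reads in *S100A4*-/- lenses and 328 and 414 in WT lenses (log2 difference 1.91; limma adjusted p = 5.75e-19). *Wfdc1* had 261 ± 24.1 (SD, n = 2) against 62.2 ± 12.7 (SD, n = 2), and *Igfbp2*, an insulin-like growth factor binding protein gene, had 264 ± 8.36 against 66.4 ± 6.76, with log2 differences of 2.06 and 1.98. Limma without the variance trend called *Penk* and *Igfbp2* but not *Wfdc1*. *Clu*, clusterin, which had the most reads, had 101276 ± 5451 against 103896 ± 1227 and a log2 difference of -0.04. *Cpamd8* and *Adm* were not analysed here. Of 10 ciliary margin signal and target genes, 2 were called higher and none lower, with a median of 0.39. *Bmp4*, a BMP ligand needed for the ciliary body, had 71.9 and 91.2 normalized reads against 15.7 and 14.2 (log2 difference 2.36; limma adjusted p = 2.59e-06). *Wnt2b*, the Wnt ligand of the ciliary margin, had 39.4 and 31.4 against 6.26 and 15.3 (log2 difference 1.73; limma adjusted p = 0.0182), and limma did not call it without either *S100A4*-/- library or without WT library 1. *Wnt2b* was also not called by DESeq2, after quantile normalization or by limma without the variance trend. *Ccnd2*, which had the most reads of this list, had a log2 difference of -0.05. At an unadjusted p under 0.05, with no limit on the fold, limma placed 4 genes higher and 1 lower (*Slc12a2*) in the aqueous secretion list, 5 higher and 1 lower (*Tgfb2*) among the secreted proteins, and 5 higher and 1 lower (*Msx2*) among the ciliary margin genes. The same counts were 10 higher and 0 lower for the vitreous and zonule list. In the Crumbs list, with the member *Crb1* left out, *Mpp3* and *Mpp4* were placed higher and 1 gene lower (*Lin7a*). In edgeR and DESeq2, 0 genes of these lists were called lower.

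Of the genes in these lists, 8 had also been listed as defining the ciliary body, so their calls repeat those above and are no separate check of the label. Among them *Col9a1*, *Col9a2*, *Ltbp2* and *Wfdc1* were called higher, while *Aqp1*, *Aqp4*, *Car2* and *Gja1* were not. Their summed normalized reads were 14450 and 13508 in *S100A4*-/- lenses, against 9374 and 10053 in WT lenses. The last 4 of these genes had WT means of 680 to 4335 normalized reads, so they were present in the normal lens.

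Markers of other eye tissues were examined in the same libraries, and the share called differed from list to list. Their lists were also written with earlier results of these data known. Each of the 10 rod genes listed was called higher, with a median log2 difference of 1.94, and their summed normalized reads were 10089 and 9898 in *S100A4*-/- lenses, against 2540 and 2707 in WT lenses. The one with the most reads was *Gnat1*, rod transducin, at 3333 ± 8.23 (SD, n = 2) against 759 ± 32.3 (SD, n = 2), which also had the largest log2 difference of the list, 2.13. *Prph2*, a structural gene of the outer segment disk, followed at 2.11 and *Gngt1*, a transducin subunit gene, at 2.07. Of 8 cone genes 5 were called, with sums of 307 and 331 against 127 and 135, though 3 were called without WT library 2 and none with either *S100A4*-/- library left out in turn, by DESeq2 or after quantile normalization, and 1 by limma without the variance trend. *Opn1sw*, the short-wave cone opsin gene, had the most reads of these, at 66.6 ± 12.4 against 27.7 ± 8.14. The cone genes with the largest log2 differences were *Gngt2*, at 20.8 ± 2.13 against 2.66 ± 0.667, *Arr3*, cone arrestin, at 55.9 ± 13.1 against 17.95 ± 13.0, and *Pde6h*, at 37.8 ± 4.70 against 10.7 ± 3.38. The WT mean of *Gngt2*, from 3 and 2 reads, is a level under 3 reads. Of 7 Müller glia genes 4 were called, but 1, *Glul*, by limma without the variance trend, and *Dkk3* and *Car14* had log2 differences of 0.03 and 0.08. Their sums, 87711 and 89603 against 82847 and 83106, were set by *Dkk3*, which the lens expresses at 77942 ± 123 in WT. *Glul*, glutamine synthetase, had 5404 ± 23.9 against 1851 ± 101, *Abca8a* had 225 ± 23.8 against 44.6 ± 12.8, and the glutamate transporter gene *Slc1a3* had 262 ± 56.8 against 90.6 ± 14.4.

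Of 7 pigment epithelium genes 5 were called, with a median log2 difference of 2.43, above the 2.19 of the 10 genes, and sums of 1736 and 1806 against 717 and 796. The 5 were *Dct*, *Mlana*, *Tyr*, *Pmel* and *Tyrp1*, while *Oca2* and *Rpe65* were not called. *Rpe65* had a log2 difference of 0.77 (limma adjusted p = 0.108). *Dct*, an enzyme gene of melanin synthesis, had 581 and 582 normalized reads in *S100A4*-/- lenses and 31.3 and 44.9 in WT lenses, a log2 difference of 3.92 (SE 0.18), close to that of *Crb1*. *Tyr*, tyrosinase, had 49.0 ± 19.6 (SD, n = 2) against 8.11 ± 5.56 (SD, n = 2), and *Mlana*, a melanosome gene, had 25.2 ± 1.68 against 1.62 ± 0.810, the last a level under 3 reads. *Oca2*, which had the most reads of the list, had 501 ± 8.32 against 500.6 ± 9.66, a difference far under its spread. Without *S100A4*-/- library 1, 2 of these genes were called, and without library 2, 3 were, as by limma without the variance trend.

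Of 5 macrophage genes 4 were called, *Csf1r* having the most reads, at 81.6 ± 16.6 against 34.2 ± 1.15. The complement genes *C1qa*, *C1qb* and *C1qc* had 49.0 ± 19.1, 50.5 ± 13.2 and 43.8 ± 13.2 against 16.0 ± 2.49, 11.0 ± 12.5 and 17.04 ± 3.96. The sums were 262 and 222 against 95.0 and 72.3, and none was called without either *S100A4*-/- library or by limma without the variance trend, 1 by DESeq2 (*Csf1r*) and 1 after quantile normalization (*C1qb*). Of 5 endothelial genes 1 was called, *Kdr* (log2 difference 2.68), and the sums were 461 and 454 against 321 and 387, most of it *Egfl7*. Of 3 smooth muscle genes 1 was called, *Myh11* (log2 difference 2.06), and the sums, nearly all *Acta2* (log2 difference 0.05), were 16654 and 18422 against 16670 and 17125. Of 5 blood genes 1 was called, the globin gene *Hbb-bs*, with sums of 294 and 259 against 169 and 98.5. *Kdr* was not called without *S100A4*-/- library 1, *Myh11* without either *S100A4*-/- library, and *Hbb-bs* without either *S100A4*-/- library, without WT library 2 or after quantile normalization. No gene of any of these lists had 0 reads in a library. The summed normalized reads of the 10 genes themselves were 5764 and 5627 against 1503 and 1779, a ratio of 3.47, beside ratios of 3.81 for rod genes, 2.44 for cone genes, 2.34 for pigment epithelium genes and 0.947 for lens fiber genes. Such a ratio leans on the gene with the most reads, and without that gene it was 2.52 for the 10 genes (without *Optc*), 3.57 for rod genes, 2.45 for cone genes and 4.96 for pigment epithelium genes (without *Oca2*). The part of RNA from these other tissues in the values of the 10 genes was not tested.

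**Figure D4:**
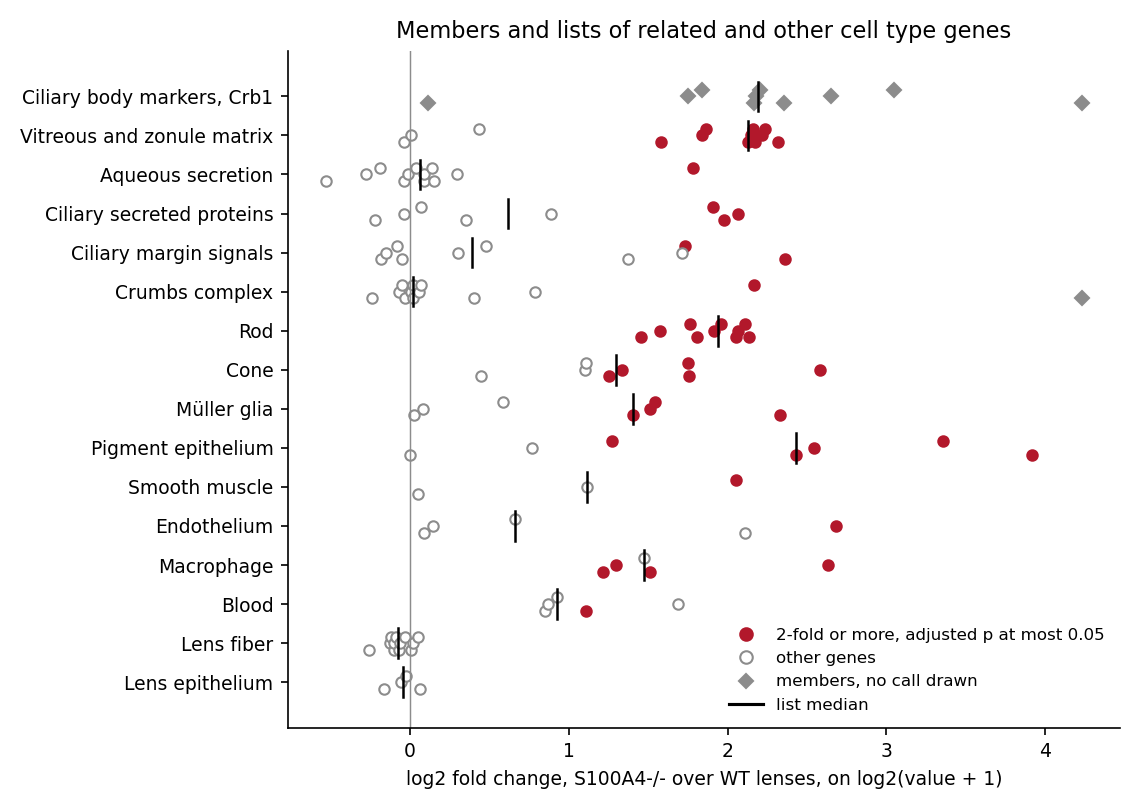
Log2 difference between *S100A4*-/- and WT lenses, on log2(value + 1), for every measured gene of each list. Filled red points passed the threshold in limma and open points did not, grey diamonds are the 10 members, chosen by their values and drawn without a call, and black bars are list medians, which run from 2.43 for pigment epithelium genes, 2.19 for the 10 members, 2.13 for the vitreous and zonule matrix and 1.94 for rod genes to -0.08 for lens fiber genes.

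**Figure D5:**
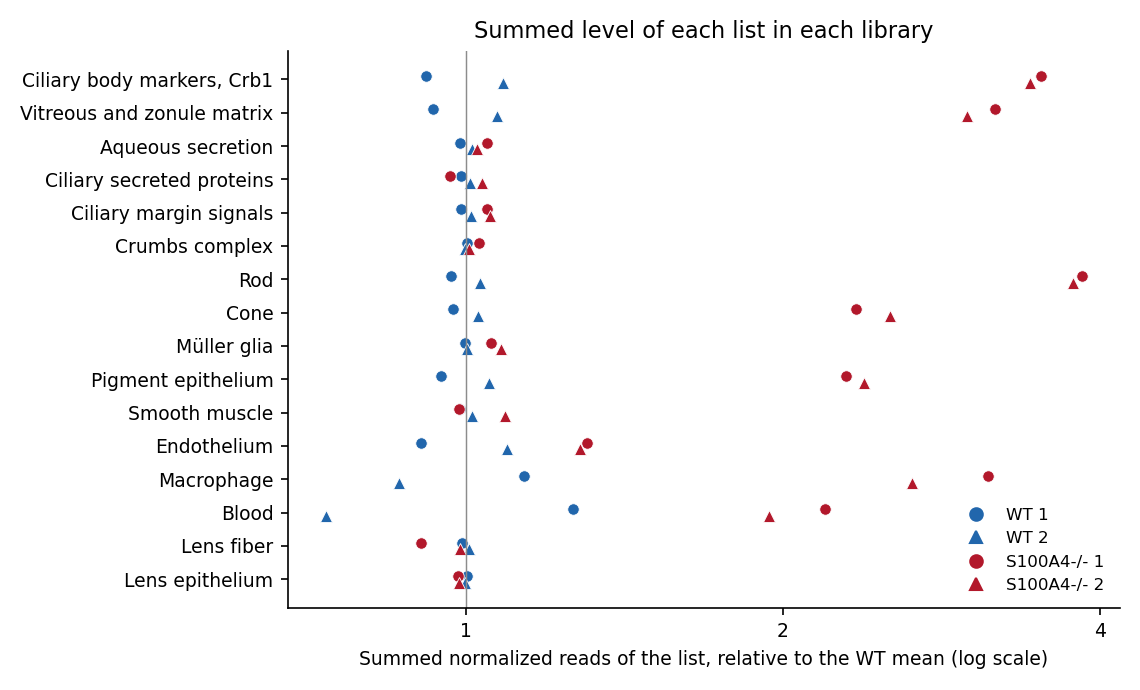
Summed normalized reads of each list in each library, divided by the mean of the WT libraries, on a log axis. Circles are library 1 and triangles library 2, blue for WT and red for *S100A4*-/-. The members, the vitreous and zonule matrix and the rod genes stand at ratios of group means of 3.47, 3.09 and 3.81, and lens fiber and lens epithelium genes at 0.947 and 0.984.

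The genes whose pattern over the 4 libraries came closest to the mean centered log2 pattern of the 10 members were sought among all other genes with a mean of 50 or more, by Euclidean distance. The 5 nearest were *Grk1* at a distance of 0.06, *Cdhr1* at 0.07, *Cdk5r2* at 0.09, *Mfrp* at 0.11 and *Slc17a7* at 0.12. *Grk1*, rhodopsin kinase, had 642 and 586 normalized reads in *S100A4*-/- lenses and 136 and 119 in WT lenses. *Mfrp*, a membrane protein gene of the pigment and ciliary epithelium, had 326 and 330 against 66.8 and 64.6. Log2 differences of the 5 ran from 2.18 to 2.30, and with 4 libraries many genes can share such a pattern. It was not particular to ciliary genes, since the nearest, *Grk1*, is a photoreceptor gene. Among the members *Best2* was nearest to their own mean, at 0.30, then *Zic1* at 0.37 and *Optc* at 0.38, and *Msx1* at 2.16 and *Crb1* at 2.60 were farthest.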

How the data were processed

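Lens RNA of 2 *S100A4*-/- and 2 WT libraries was sequenced as stranded single-end mRNA. The authors trimmed reads with Trim Galore, aligned them with STAR to the mouse genome (GRCm38; mm10 in the submitters' processing notes) and used HTSeq to count reads of 1 locus. Genes under 10 reads in every library were dropped, and counts were divided by DESeq2 size factors. Tool versions are not given in the sources used here. The deposited signal values are the resulting normalized reads of 14924 genes. Dividing by what 1 read is worth (0.856 to 1.095) gave whole numbers for 100.0% of values. The limit was 0.01 read, widened in proportion to the count for genes with very many reads, where it tests little. The division gave back the reads and the depth of each library, and counting intervals (95%, exact) come from these. No column of per-sample values was unused (0 columns).

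Values were tested as log2(value + 1) with limma 3.58.1 (trended variance, R 4.3.3) on 14780 genes with a value of 10 or more in any library, leaving out 144. The pseudocount shrinks fold changes of low genes, while averaging logs raises them where WT libraries differ widely, as for *Crb1* (4.23 here, 3.82 in edgeR). Recovered reads were tested with edgeR 4.0.16 and DESeq2 1.42.0 as alternatives, added to other pseudocounts, filters, scalings and libraries left out. Scripts were tested on simulated data. Genes were placed and measured with GENCODE M21, and promoters taken from RefSeq. All members, listed family genes and Crumbs genes are named. Of each other list, the 3 largest changes called and the gene with the most reads are named, for lens epithelium *Npnt*. Some related genes are not reported here. Nearest genes were the 5 with a mean of 50 or more closest to the members' mean profile. The members and all lists were chosen with earlier results of these data known.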

Additional observations from a re-analysis of the deposited data

How the results depend on the processing

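The log2 differences of the 10 genes kept their sign under all 15 alternatives in which each passed the filter. Those of the 9 genes other than *Msx1* stayed between 1.58 and 5.51. The number of genes called higher across the table was 539 (11 lower). It was 281 (6 lower) with a mean of at least 50, 174 (7 lower) in limma without the trend, 421 (6 lower) in DESeq2 and 553 (11 lower) in edgeR on recovered reads, 376 (23 lower) after quantile normalization, and 168 to 546 (4 to 13 lower) with a library left out, lowest without *S100A4*-/- library 1. The number of the 10 genes past the threshold, which their choice fixed and from which nothing is read, was 9, but 3 in limma without the trend and 5 to 9 with a library left out. *Zic5* was too low for the mean of 50. Vitreous and zonule genes called were 6 without the trend and 9 to 10 with a library left out. Ciliary margin genes called were 0 with a mean of at least 50, 1 each after quantile normalization, without the trend and in DESeq2, and 1 to 2 with a library left out. Without the trend limma also called 0 genes of the Crumbs list outside *Crb1* and of the macrophage, smooth muscle and blood lists. It called neither *Otx2* nor *Crx*, 1 cone gene, 1 of 7 Müller glia genes and 3 of 7 pigment epithelium genes. Called too were 9 of 10 rod genes and 2 of 8 secreted protein genes (not *Wfdc1*). After quantile normalization 0 cone, 1 macrophage and 0 blood genes were called. The cause of these moves was not tested, except that the higher filter tests fewer genes and a left-out library leaves fewer samples.

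With the replicate number as a block, 576 genes were called higher and 15 lower, and 2 endothelial genes (*Kdr* and *Tie1*) in place of 1. The labels do not say that a shared number pairs libraries, and deviations of same-numbered libraries correlated at 0.01. With reads expected in proportion to library totals, the median chi-square per gene was 2.03 for *S100A4*-/- and 1.10 for WT, where sampling alone gives 0.455. These totals are not the size factors used elsewhere. How much of the excess comes from that scaling, and how much from spread between libraries, was not tested. With 2 libraries a group, and WT counts of 8 to 46 reads for *Zic5*, *Crb1*, *Otx1* and *Zic2*, the sizes of the largest ratios are known only within wide limits.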
